A study of Mus musculus with 10 samples.

Results

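The genes described here are 7 clock output factors: Tef, Dbp and Hlf of the PAR bZIP family, their antagonist Nfil3, and the repressors Bhlhe40, Bhlhe41 and Ciart. They were taken by symbol from a table of raw read counts of 48526 mouse genes, and all 7 are in it. The table holds 10 RNA-seq libraries, 5 from non-stressed and 5 from stressed mice, all of the strain given as ApoE and all labelled as aortic endothelial cells isolated by cell sorting. Acute mental stress lasted 3 h a day in the stressed animals and was repeated over 3 days in a row, after which the aortae were removed. The sources used here do not give the time of day of removal, the age and sex of the animals, the ApoE genotype beyond its name, or whether a library came from 1 animal or from several. The comparison addresses whether the stress altered expression in the sorted cells.

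The circadian clock is a transcriptional loop in which the activators CLOCK and BMAL1 (gene Arntl) bind E-box elements and drive their own repressors, the PER and CRY proteins. The same E-boxes drive output factors. The PAR bZIP proteins TEF, DBP and HLF activate genes through a DNA element called the D-box, and NFIL3 (also called E4BP4) represses through the same element. BHLHE40 and BHLHE41 (DEC1 and DEC2) bind E-boxes and repress there, and CIART (CHRONO) represses CLOCK and BMAL1 directly. In cells of the immune system NFIL3 is also required for natural killer cells and some dendritic cells, and BHLHE40 is a regulator of cytokine production.

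Total counts ran from 18020220 to 38237346 per library, so that a count of 0 allows a level of up to 0.0785 to 0.166 counts per 1000000 counts (CPM), taken as 3 counts and covering counting error only. Of the 12 endothelial markers, 3 (Tek, Emcn and Cldn5) had 0 reads in every library, and Cdh5, the endothelial cadherin, had 115 reads over all libraries. Flt1 (24.7 to 122 CPM), Vwf (16.0 to 44.8 CPM) and Pecam1 (12.2 to 46.8 CPM) were counted in every library and carried most of the summed endothelial level, and the other 5 stayed at 2.35 CPM or less. The 12 endothelial markers together summed to 74.4 to 163 CPM in the non-stressed and 85.0 to 132 CPM in the stressed libraries. The 9 markers of monocytes and macrophages summed to 21545 to 33460 CPM and 26307 to 33416 CPM. Of the 12 markers listed for the labelled cell type, 3 were thus at clear levels and 9 at 0 or low. Monocyte and macrophage markers were far more abundant. Which cells the reads of Flt1, Vwf and Pecam1 came from was not tested. In such bulk samples, fewer cells of a type and less RNA per cell cannot be told apart. Of 13 library measures, among them total counts and the summed levels of 9 marker lists, 0 reached an unadjusted p under 0.05 (two-sided exact permutation test, smallest adjusted p = 0.619). At this number of libraries and measures, a single measure at the smallest possible p would have an adjusted p of 0.103, so this test could show little. Total counts averaged 30415732 ± 6097379 (SD, n = 5) without stress and 23721725 ± 4636084 (SD, n = 5) with it, and the part of depth in the results below was not tested. A split that the labels do not give ran through both groups: 6 libraries (replicates 2, 3 and 4 of each group) held more than 100 reads of Ddx3y, a Y-linked gene, and the other 4 (replicates 1 and 5 of each group) had 0. Reads of Xist, an X-linked gene, went the other way, with 9241 to 18977 in these 4 libraries and 0 in the 6.

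The promoters of the members are shown first, because the E-box is the element through which the clock drives several of them. Windows of 300 bases, from 250 before to 50 after an annotated start, were taken from RefSeq (GRCm38.p6), which held 7 windows for 6 of the 7 members. Bhlhe40 had no window. In the sequences below, capitals mark each match to a searched motif. Tef has a pair of annotated starts, and each of its windows holds 1 E-box, CACGTG. Ciart holds 3. Nfil3, which is shown for contrast, holds no E-box and 1 reverse match to AGGTCA, the core of the element bound by the ROR and REV-ERB receptors.
Tef start 1, chr15:81802423-81802722, plus strand: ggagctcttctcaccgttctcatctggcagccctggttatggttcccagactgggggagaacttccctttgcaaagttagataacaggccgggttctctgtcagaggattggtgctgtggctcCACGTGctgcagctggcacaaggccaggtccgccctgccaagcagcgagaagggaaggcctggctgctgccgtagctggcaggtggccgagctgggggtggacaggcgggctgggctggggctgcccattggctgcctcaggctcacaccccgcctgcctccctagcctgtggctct
Tef start 2, chr15:81811164-81811463, plus strand: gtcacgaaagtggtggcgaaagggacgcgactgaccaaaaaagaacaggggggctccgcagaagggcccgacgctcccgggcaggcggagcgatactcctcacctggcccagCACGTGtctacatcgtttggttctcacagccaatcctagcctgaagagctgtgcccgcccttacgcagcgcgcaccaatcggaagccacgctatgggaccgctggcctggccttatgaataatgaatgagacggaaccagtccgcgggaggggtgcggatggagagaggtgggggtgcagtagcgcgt
Ciart, chr3:95882179-95882478, minus strand: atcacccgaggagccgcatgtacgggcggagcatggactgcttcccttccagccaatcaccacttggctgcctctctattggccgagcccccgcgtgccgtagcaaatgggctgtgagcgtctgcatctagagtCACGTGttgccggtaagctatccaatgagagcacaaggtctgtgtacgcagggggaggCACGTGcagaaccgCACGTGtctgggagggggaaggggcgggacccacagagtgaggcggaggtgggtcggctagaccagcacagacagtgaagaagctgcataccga
Nfil3, chr13:52980990-52981289, minus strand: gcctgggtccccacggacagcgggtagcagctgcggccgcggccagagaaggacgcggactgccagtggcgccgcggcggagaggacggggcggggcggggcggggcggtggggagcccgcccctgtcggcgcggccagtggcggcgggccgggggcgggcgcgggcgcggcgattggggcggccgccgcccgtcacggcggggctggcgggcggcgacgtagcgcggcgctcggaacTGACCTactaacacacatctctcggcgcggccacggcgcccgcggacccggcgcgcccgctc

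Counted from the start, the first E-box base lay at -127 and -138 in the 2 windows of Tef, and at -116, -58 and -44 in that of Ciart. Bhlhe41 also had an E-box, at -153. An E-box was thus in 4 of the 7 windows, 2 of which belong to Tef, while 7.15% of the 32851 RefSeq windows of this length hold one. The members' windows were 60.3% to 81.7% G or C, against a median of 52.7% over all windows. They held 9 to 54 CG pairs, against a median of 7, and CACGTG contains such a pair. The 2 shares are thus not matched for base composition, and no enrichment was tested. AGGTCA, in 16.3% of all windows, was matched in Nfil3 alone among the members. The cyclic AMP response element TGACGTCA, in 1.79% of all windows, was matched once, in Hlf. The D-box was searched as TTATGTAA or TTACGTAA (1.06% of all windows), a variant E-box as CACGTT (4.68%) and the glucocorticoid response element as ACANNNTGT (6.85%). Each motif was searched on both strands, no 2 matches overlapped, and these last 3 motifs had no match in the members' windows. The Dbp window had no match to any of the searched motifs. A match is a description of letters in these windows and says nothing of binding.

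**Figure D1:**
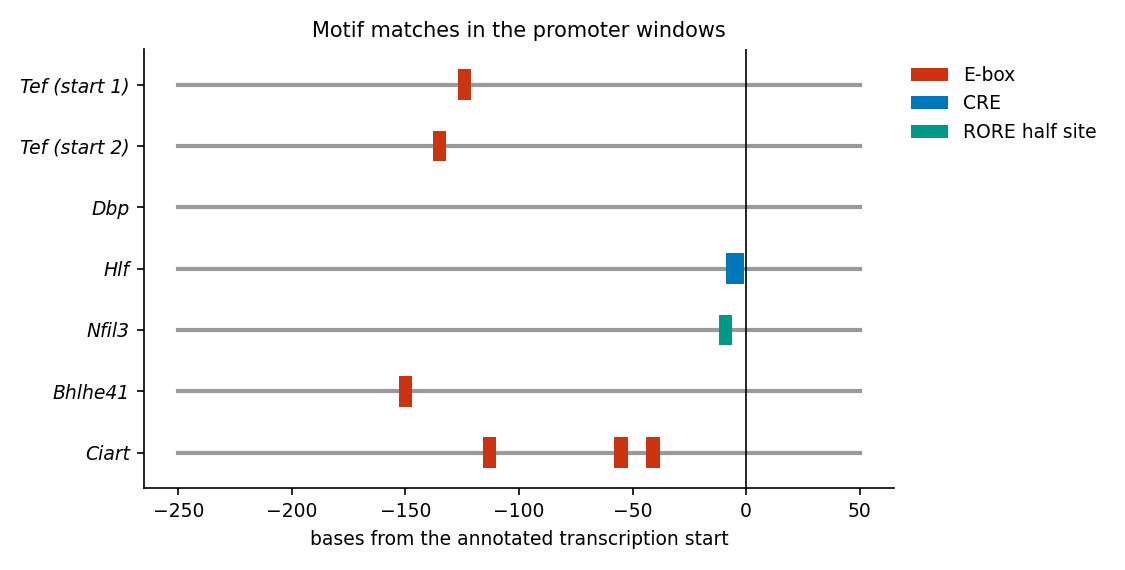
Motif matches in the promoter windows of 6 members. The horizontal axis gives the distance from the annotated transcription start in bases, each grey line is 1 window, and coloured blocks are matches to the E-box, the cyclic AMP response element (CRE) and AGGTCA (RORE in the legend). Ciart has 3 E-boxes, each start of Tef and Bhlhe41 have 1, and Dbp has no match.

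By identity of the translated GENCODE coding sequences, TEF, DBP and HLF form 1 group and BHLHE40 and BHLHE41 another. TEF (301 residues) and HLF (295 residues) were identical at 55.6% of the shorter protein's residues, DBP (325 residues) and HLF at 54.2%, and TEF and DBP at 48.2%. Over the last 100 residues, the identity was 76% between TEF and HLF and 66% between each of them and DBP. NFIL3 (462 residues) shared 13.5% to 16.6% of whole-protein residues with these 3, and 22.4% and 24.1% with BHLHE40 and BHLHE41. Over the last 100 residues the order was reversed. There NFIL3 shared 19% with TEF, 26% with DBP and 20% with HLF, but 9% with BHLHE40 and 17% with BHLHE41. The last 100 residues were taken by position alone, and whether they hold the bZIP domain of each protein was not checked. These values are thus no measure of likeness between the DNA-binding domains. No grouping of NFIL3 is drawn from such low identities. BHLHE40 (411 residues) and BHLHE41 (410 residues) were identical at 47.8%, and CIART (375 residues) shared at most 24.5% with any other member. The members lie on different chromosomes except this last pair, which both lie on chromosome 6.

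The members differed widely in level. Nfil3 was the most abundant per length, with a median of 42.0 CPM per kilobase of exon over the 10 libraries, followed by Bhlhe40 at 10.1, Tef at 5.52, Ciart at 3.65, Dbp at 1.01 and Bhlhe41 at 0.0767. Hlf had 6 reads in all, 3 in non-stressed replicate 2 and 3 in stressed replicate 4, and 0 in the other 8 libraries. Both groups are at the floor for Hlf, so no fold is given. Nfil3, at 30.03 to 67.0 CPM per kilobase, lay above Bhlhe40, at 4.04 to 18.7, in every library, and the ranges did not overlap. Bhlhe40 was above Tef in 9 of 10 libraries and Tef above Ciart in 8 of 10, with overlapping ranges in both cases. Ciart was above Dbp in all 10, with overlapping ranges, and Dbp lay wholly above Bhlhe41. Among the 3 PAR bZIP activators, the transcripts were thus mostly those of Tef: Dbp per length stood at 0.11 to 0.268 of the level of Tef. The length used is the union of all annotated exons. With the longest transcript instead, Tef stood at a median of 9.87 and Bhlhe40 at 15.3 CPM per kilobase, and the order of the members by their medians was as before.

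**Figure D2:**
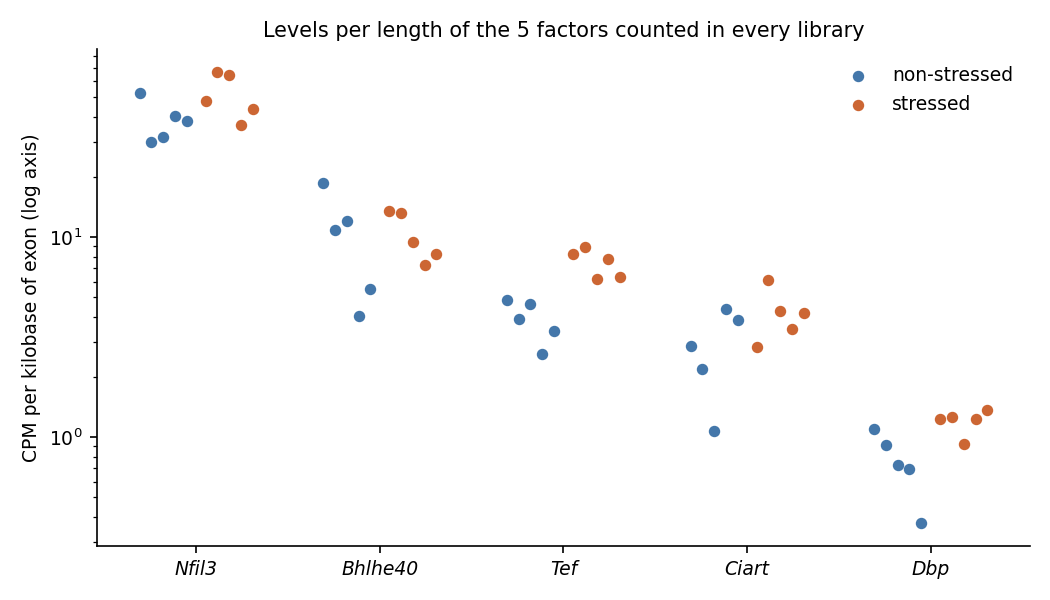
Levels per length of the 5 members counted in every library, as CPM per kilobase of exon union on a log axis. Each point is 1 library, 5 per group. The points of Nfil3 lie above those of every other member, and the 5 stressed points of Tef lie above its 5 non-stressed ones.

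Of the 6 members that passed the filter on low counts (all but Hlf), 6 had a log2 fold change above 0 in the stressed libraries, as did 50.9% of all 13334 genes tested. None of the 6 passed an adjusted p of 0.05 in edgeR's quasi-likelihood test, a call that 0.0075% of all genes got (1 gene, the chitinase-like Chil3). DESeq2 placed 1 member, Tef, past that threshold, and limma-voom with quality weights 0. At an unadjusted p under 0.05 there were 2 of 6, Tef and Nfil3, both higher, against 2.59% of all genes higher and 2.95% lower. Tef alone had groups that did not overlap, as had 0.607% of all genes in that direction. The median log2 fold change of the 6 was 0.49, and 0.0045 over all genes tested. The members were listed with results of these data known, so these counts are a description. Markers of other cell types went in both directions in the same fit. All 7 erythroid markers were higher, 5 of them at an unadjusted p under 0.05, with a median log2 fold change of 0.72, and their summed level ran from 1333 to 2781 CPM without stress and from 1172 to 5529 CPM with it. All 5 platelet markers were higher, with a median of 0.53 and 0 at an unadjusted p under 0.05, and summed to 57.9 to 208 CPM and 99.2 to 226 CPM. None of these passed the adjusted threshold in edgeR, and Slc4a1, the erythroid anion exchanger, did in DESeq2 (adjusted p = 0.0276), as did the neutrophil marker Mmp8 (adjusted p = 0.00575; 0.0106 in edgeR with no filter on low counts). Of the 10 neutrophil markers 7 were higher, at a median of 0.14. Other lists were mostly lower: all 6 B cell markers (median -0.26), 6 of 8 T and NK cell markers (-0.60) and all 5 endothelial markers tested (-0.29). Of these 3 lists, 0 markers reached an unadjusted p under 0.05 in edgeR. Among the 9 monocyte and macrophage markers, 5 were higher and 4 lower, at a median of 0.037. The part of these markers in the members' values was not tested. Slc4a1 and Mmp8 were named after their values were seen.

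Tef, which encodes the thyrotroph embryonic factor, an activator at D-boxes, stood at 38.2, 30.5, 36.3, 20.4 and 26.6 CPM in non-stressed replicates 1 to 5. In stressed replicates 1 to 5 it stood at 65.1, 70.0, 48.7, 61.0 and 49.96 CPM. Every stressed library was above every non-stressed one, and the nearest values were 38.2 and 48.7 CPM. The group means were 30.4 ± 7.25 CPM (SD, n = 5) without stress and 59.0 ± 9.35 CPM (SD, n = 5) with it, a 1.94-fold difference. The log2 fold change was 0.96 (standard error, SE, 0.16; 95% interval 0.61 to 1.30; edgeR, unadjusted p = 2.94e-05, adjusted p = 0.156). Among all genes tested, Tef was second by p. The adjusted p was 0.000184 in DESeq2 and 0.00189 in edgeR without a low-count filter, at log2 fold changes of 0.96 and 0.95. Leaving out each of the 10 libraries in turn, the log2 fold change ran from 0.85 to 1.04 and the adjusted p from 0.0701 to 0.479. The difference of mean log2 TMM-scaled CPM was 0.85 in the 4 libraries without Ddx3y reads and 1.06 in the 6 with them. The interaction was 0.20 (SE 0.35; edgeR, unadjusted p = 0.581, adjusted p = 1). The gene (ENSMUSG00000022389) lies on chromosome 15 from 81802421 to 81826863, plus strand, in mm10, and has 10 annotated transcripts. An antisense gene that overlaps its first 193 bases, Gm17597, had 0 reads.

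Dbp, which encodes the albumin D-box binding protein and whose transcript is among the most strongly rhythmic of many tissues, was low in all libraries. It stood at 3.28, 2.72, 2.18, 2.08 and 1.11 CPM in non-stressed replicates 1 to 5 and at 3.69, 3.77, 2.77, 3.68 and 4.08 CPM in stressed replicates 1 to 5. These levels rest on 32 to 111 reads per library. The values of 4 stressed libraries exceeded the whole non-stressed range, and stressed replicate 3, at 2.77 CPM, lay below non-stressed replicate 1. The group means were 2.28 ± 0.807 CPM (SD, n = 5) without stress and 3.60 ± 0.489 CPM (SD, n = 5) with it. The log2 fold change was 0.67 (SE 0.38; 95% interval -0.15 to 1.48; edgeR, adjusted p = 0.940). It ran from 0.49 without non-stressed replicate 5, the lowest library, to 0.82 without non-stressed replicate 1, the highest of its group. Dbp (ENSMUSG00000059824, chromosome 7 from 45705088 to 45710203, plus strand) shares 737 bases at its end with Sphk2, a sphingosine kinase gene of the other strand. Sphk2 stood far higher, at 65.6 to 101 CPM. The strand setting of the counting is not given, so reads of this pair cannot be told apart in the shared bases. Sphk2 itself had a log2 fold change of 0.16 (SE 0.11; edgeR, adjusted p = 0.950).

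Nfil3, the repressor at D-boxes, stood at 107, 60.8, 63.8, 81.7 and 76.9 CPM in non-stressed replicates 1 to 5. In stressed replicates 1 to 5 it stood at 96.9, 136, 131, 73.7 and 88.6 CPM. The groups overlapped: stressed replicates 2 and 3 were above all others, and stressed replicate 4 was below 3 of the non-stressed libraries. The group means were 78.0 ± 18.2 CPM (SD, n = 5) without stress and 105.2 ± 27.1 CPM (SD, n = 5) with it. The log2 fold change was 0.44 (SE 0.18; 95% interval 0.058 to 0.82; edgeR, unadjusted p = 0.0266, adjusted p = 0.874). The interval lay above 0, as did that of the activator Tef. The difference was 0.047 in the 4 libraries without Ddx3y reads and 0.68 in the 6 with them, and the interaction of 0.69 (SE 0.34) did not pass (edgeR, unadjusted p = 0.0641, adjusted p = 1). The gene (ENSMUSG00000056749) lies on chromosome 13 from 52967209 to 52981073, minus strand, with 1 annotated transcript of 2 exons.

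Set against its antagonist within each library, Tef per length was 0.0643 to 0.147 of Nfil3 in the non-stressed libraries, with a median of 0.0923. In the stressed libraries it was 0.0959 to 0.213, with a median of 0.145. The 2 ranges overlapped. Nfil3 was thus the more abundant transcript of the pair in all 10 libraries.

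Ciart, the gene of the repressor CHRONO, stood at 6.44, 4.94, 2.44, 9.86 and 8.70 CPM in non-stressed replicates 1 to 5 and at 6.42, 13.8, 9.71, 7.82 and 9.42 CPM in stressed replicates 1 to 5. The groups overlapped between 6.42 and 9.86 CPM, and the non-stressed libraries alone spanned 4.04-fold. The group means were 6.48 ± 2.96 CPM (SD, n = 5) without stress and 9.44 ± 2.80 CPM (SD, n = 5) with it. The log2 fold change was 0.55 (SE 0.34; 95% interval -0.17 to 1.27; edgeR, adjusted p = 0.943). It was 1.01 by limma-voom with quality weights (adjusted p = 0.445), 0.33 without non-stressed replicate 3 and 0.37 without stressed replicate 2. The difference was 0.068 in the libraries without Ddx3y reads and 1.03 in those with them. The interaction was 0.78 (SE 0.71; edgeR, unadjusted p = 0.291, adjusted p = 1). Ciart (ENSMUSG00000038550, chromosome 3 from 95878503 to 95882251, minus strand) lies wholly inside the antisense gene C920021L13Rik, which was counted at 7.68 to 17.0 CPM. C920021L13Rik had a log2 fold change of 0.020 (SE 0.22; edgeR, adjusted p = 0.998). As the strand setting is not given, the split of reads between this pair is uncertain.

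Bhlhe40, the repressor DEC1, varied most within the non-stressed group among the 5 members counted in every library. It stood at 88.2, 50.9, 56.7, 19.0 and 25.98 CPM in non-stressed replicates 1 to 5 and at 63.8, 62.0, 44.3, 34.3 and 38.8 CPM in stressed replicates 1 to 5. All stressed values lay inside the non-stressed range, which spanned 4.64-fold on 484 to 2150 reads. The group means were 48.2 ± 27.5 CPM (SD, n = 5) without stress and 48.6 ± 13.5 CPM (SD, n = 5) with it. The log2 fold change was 0.019 (SE 0.32; 95% interval -0.67 to 0.71; edgeR, adjusted p = 0.998). The interval leaves room for a difference of up to about 0.7 in either direction. It was -0.18 without non-stressed replicate 4 and 0.34 without non-stressed replicate 1. The gene (ENSMUSG00000030103) lies on chromosome 6 from 108660629 to 108666925, plus strand.

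Bhlhe41, the repressor DEC2, was near the floor, with 13, 36, 15, 0 and 24 reads in non-stressed replicates 1 to 5 and 32, 11, 10, 15 and 0 reads in stressed replicates 1 to 5. Both groups thus held 1 library without a read and none above 1.48 CPM. The log2 fold change of 0.13 came with a 95% interval of -2.30 to 2.57 (SE 1.14; edgeR, adjusted p = 0.998). Limma-voom with quality weights gave -0.36 (adjusted p = 0.947), and no direction is drawn. The gene (ENSMUSG00000030256) lies on chromosome 6 from 145858243 to 145865558, minus strand, and Hlf (ENSMUSG00000003949) on chromosome 11 from 90336536 to 90390895, minus strand.

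**Figure D3:**
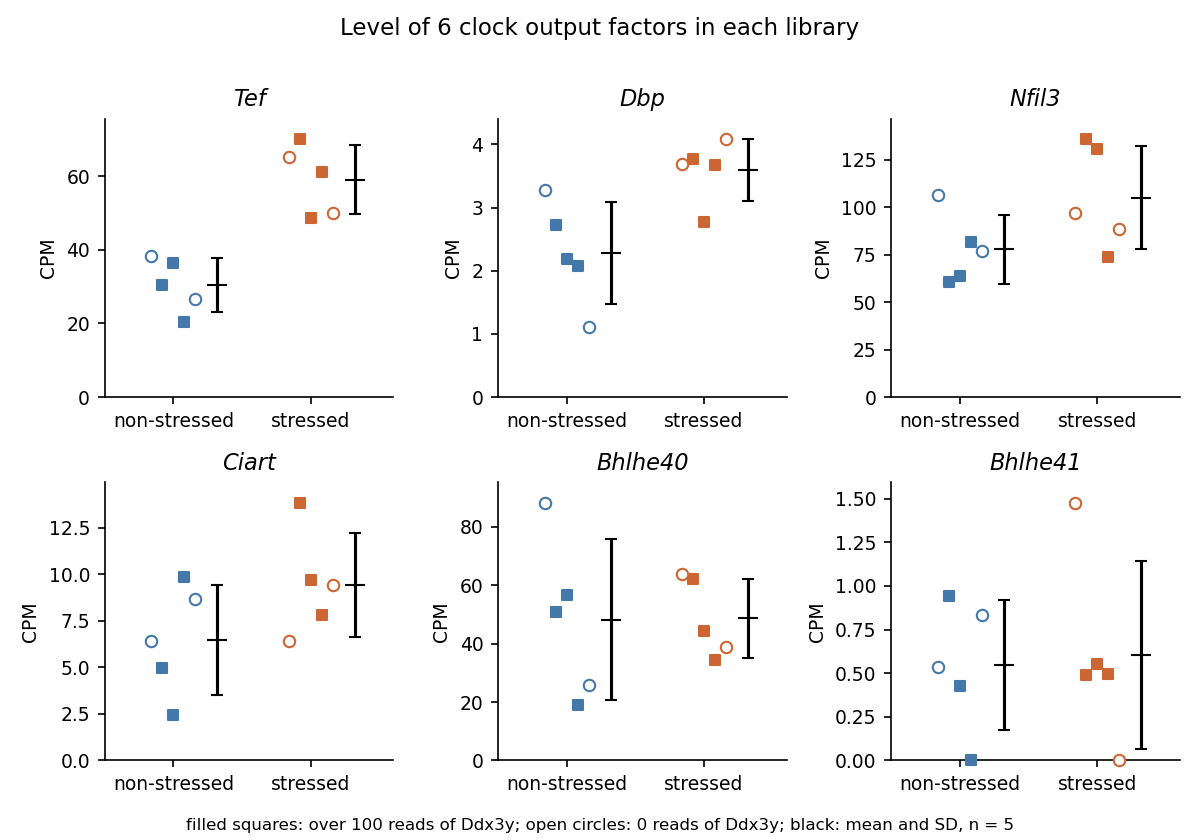
Level of 6 members in each library, in CPM on linear axes from 0. Filled squares are libraries with over 100 reads of Ddx3y, open circles those with 0 reads, and black bars give the mean and SD of 5 libraries. Tef is the member whose stressed libraries (48.7 to 70.0 CPM) all lie above its non-stressed ones (20.4 to 38.2 CPM).

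The core clock genes, from which these outputs are driven, were tested in the same fit. Of 13 core clock genes 10 were tested, 9 were higher and 1 lower in the stressed libraries, and 6 reached an unadjusted p under 0.05, all higher. None passed the adjusted threshold in edgeR or limma-voom, 2 did in DESeq2 (Cry1 and Nr1d1), and the median log2 fold change was 0.53. Among all 13334 genes tested, 50.9% were higher, and 2.59% were higher at an unadjusted p under 0.05 in edgeR. The core clock list was also chosen with results of these data known, so its counts are a description. Nr1d1, the gene of the repressor REV-ERB alpha, had the largest log2 fold change at 1.70 (SE 0.37; edgeR, adjusted p = 0.429). Cry1, a repressor of CLOCK and BMAL1, stood at 0.53 (SE 0.12; edgeR, adjusted p = 0.429) and Nr1d2, the gene of REV-ERB beta, at 0.43 (SE 0.13; edgeR, adjusted p = 0.778). These 3 had groups that did not overlap in CPM, as had 0.607% of all genes in that direction. Per3 had 0.95 (SE 0.35) and Per1 0.53 (SE 0.23; edgeR, adjusted p = 0.874 for each), and their groups overlapped. The lower one was Arntl, the gene of the activator BMAL1, at -0.29 (SE 0.19; edgeR, adjusted p = 0.948), and Clock had 0.073 (SE 0.13; edgeR, adjusted p = 0.985). Arntl and Clock lie outside the rule for named genes and were chosen after their values were seen.

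**Figure D4:**
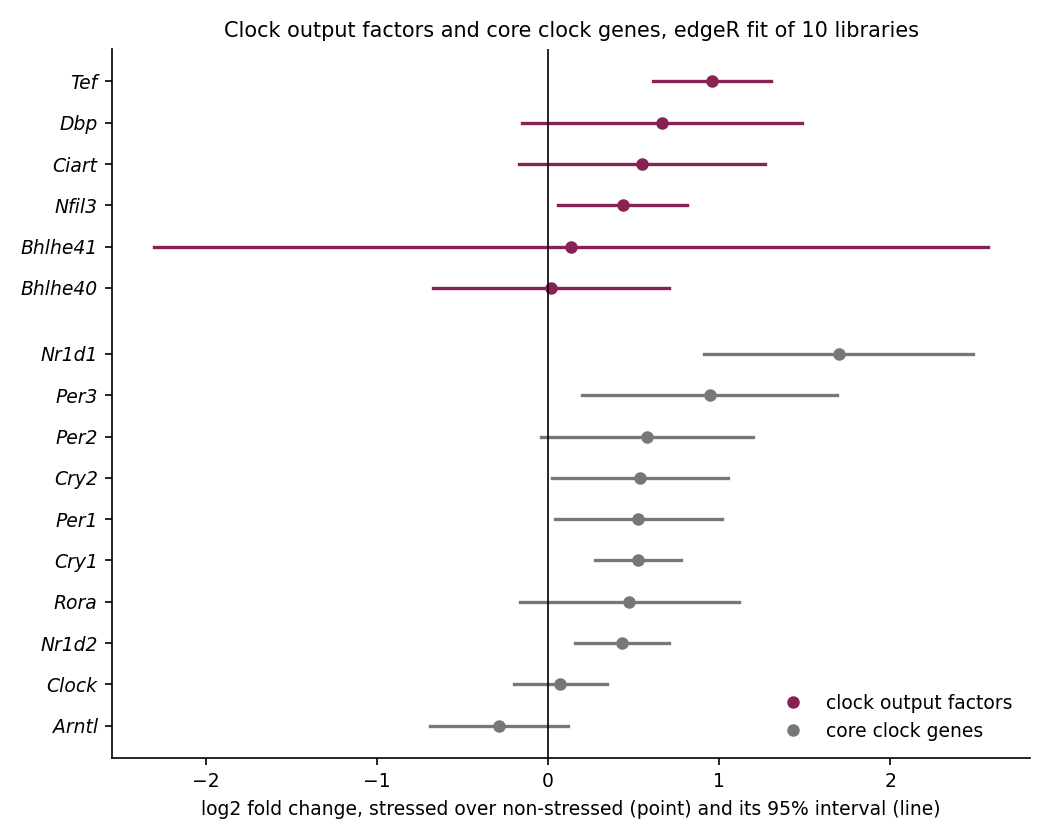
Log2 fold change of stressed over non-stressed libraries (points) with its 95% interval (lines) from the edgeR fit, for 6 clock output factors and 10 core clock genes. The interval of Tef runs from 0.61 to 1.30, those of Dbp, Ciart, Bhlhe40 and Bhlhe41 include 0, and Arntl is the 1 gene shown with a value below 0.

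Genes further from the loop were split between both directions. Of 8 clock kinases and ubiquitin ligases 7 were tested, 3 higher and 4 lower. Their median log2 fold change was -0.015, with none at an unadjusted p under 0.05. Those with the smallest p were Fbxw11 at -0.11, the kinase gene Csnk1e at 0.11 and Csnk1a1 at -0.066. Of 8 genes known as rhythmic outputs in many tissues, 4 were higher and 4 lower, with a median of -0.023 and none at an unadjusted p under 0.05. Among them the pyridoxal kinase gene Pdxk, a known target of the PAR bZIP factors, had -0.21 (SE 0.12; edgeR, adjusted p = 0.940). Alas1, the first enzyme of haem synthesis, had 0.15, and Klf9, which glucocorticoids also induce, 0.34.

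The C/EBP genes, whose bZIP proteins are relatives of the PAR family, were 6 of 6 higher, with a median of 0.25 and 1 at an unadjusted p under 0.05. That gene was Cebpd at 0.28 (SE 0.10; edgeR, adjusted p = 0.874), while Cebpb stood at 0.22 and Cebpe at 0.82. Of 10 glucocorticoid-induced genes 9 were tested and 9 were higher, 5 of them at an unadjusted p under 0.05, with a median of 0.34. Over all genes tested, 50.9% were higher, and 2.59% were higher at that unadjusted p. Both lists were chosen with results of these data known. None of the 9 glucocorticoid-induced genes passed the adjusted threshold in the filtered edgeR fit or in limma-voom. Fkbp5 did in DESeq2 (adjusted p = 0.00392) and in edgeR with no filter on low counts (adjusted p = 0.0106). Fkbp5, whose protein binds the glucocorticoid receptor complex, had the smallest p in the filtered edgeR fit at 1.14 (SE 0.23; edgeR, adjusted p = 0.349), followed by Cebpd and Mt1, a metallothionein gene, at 1.69 (SE 0.70; edgeR, adjusted p = 0.874). Per1, Klf9 and Cebpd are on 2 of these lists each. Of 7 immune genes that have been linked to Nfil3 or Bhlhe40, 3 were tested, Id2 at -0.036, Gata3 at -0.68 and Il1b at 0.15, none at an unadjusted p under 0.05. None of the C/EBP, kinase, rhythmic output or immune genes passed the adjusted threshold in edgeR, DESeq2 or limma-voom. Il12b and Csf2 had 0 reads in every library.

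The genes most like each member over the 10 libraries were taken by Pearson's r of log2(CPM + 1) among 10710 genes, as a description. The libraries share the groups, so that genes which differ between them resemble Tef for that reason too. The 5 genes most like Tef were Cry1 (r = 0.923), Fkbp5 (0.910), Acsl1 (0.889), Zfp764 (0.886) and Actn4 (0.882). Fkbp5 stood at 24.5, 16.9, 19.1, 10.6 and 17.9 CPM in non-stressed replicates 1 to 5 and at 40.6, 58.4, 40.4, 25.2 and 31.6 CPM in stressed replicates 1 to 5. It thus separated the groups as Tef did. Of the 5, Zfp764 and Actn4 had overlapping groups.

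Nfil3 was most like Per1 (r = 0.975), Plaur (0.964) and Cd14 (0.925), a pattern that crossed the groups. Per1 stood at 123, 56.1, 56.7, 89.2 and 71.0 CPM in non-stressed replicates 1 to 5 and at 113, 157, 132, 66.5 and 100.3 CPM in stressed replicates 1 to 5. Both genes were highest in stressed replicates 2 and 3 and next in non-stressed replicate 1. The stressed library with the lowest level was replicate 4 for both.

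Bhlhe40 was most like Treml4 (r = 0.988), Lfng (0.984) and S1pr5 (0.978). Treml4, a receptor of myeloid cells, stood at 301.5, 226, 251, 101 and 138 CPM in non-stressed replicates 1 to 5. In stressed replicates 1 to 5 it stood at 266, 238, 187, 154 and 172 CPM. Non-stressed replicates 4 and 5 were lowest and non-stressed replicate 1 highest for both genes. Treml4 had a log2 fold change of 0.0027 between the groups. For the others, the most like genes were Rab20 (0.891), Pigw (0.851) and Mboat1 (0.842) for Dbp, Atg3 (0.912), Hspa1b (0.901) and Snx20 (0.901) for Ciart, and Pigf (0.908), Psd4 (0.882) and Nudcd3 (0.881) for Bhlhe41. None of these listed genes was shared between members. With so few genes taken from 10710 over 10 libraries, high r can arise by chance and shared genes would be rare. Nothing about the members is drawn from this.

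**Figure D5:**
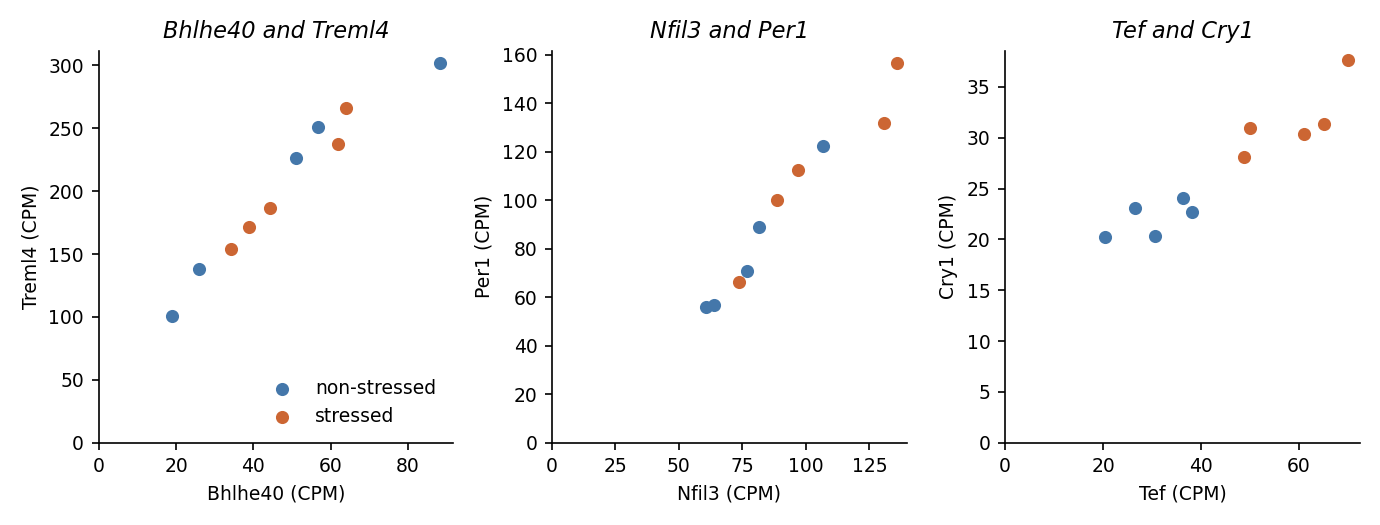
Levels of 3 members (horizontal axes, CPM) against the gene most like each (vertical axes, CPM), 1 point per library. Bhlhe40 with Treml4 and Nfil3 with Per1 follow a line on which both groups mix, whereas for Tef with Cry1 all stressed libraries lie above and to the right of the non-stressed ones.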

How the data were processed

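RNA of the sorted cells was prepared with a PicoPure kit and sequenced from TruSeq Stranded libraries, per the labels' protocols. The submitters' processing notes name Trimmomatic, STAR, featureCounts and mm10. Their versions, the annotation release and the strand setting were not given in the sources used here. The deposited table holds raw counts, not normalized. Of its 48526 identifiers, 48058 matched a symbol. The main test was edgeR 4.0.16 under R 4.3.3 (filterByExpr, minimum count 10; TMM factors; intercept and group; quasi-likelihood F test; Benjamini-Hochberg adjustment over the 13334 genes left, threshold 0.05). Each SE is the size of the log2 fold change over the square root of F. Levels are CPM on the plain library total. Coordinates, exons and translated coding sequences came from GENCODE M21, since no RefSeq proteins were used here. Library measures were compared by exact permutation (scipy 1.17.1; 252 assignments, smallest p 0.00794). The members and lists were chosen with earlier results of these data known.

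Named were all members, up to 5 core clock genes and up to 3 of each other list by smallest p, and the genes most like each member with a mean of at least 1 CPM; exceptions are stated. Groups and replicate numbers came from the titles. No label says that replicates are separate animals. By the split in Ddx3y and Xist reads, the libraries of a group did not all come from the same animals. The p-values cover the spread between these libraries, part of which may be technical. The alternatives were DESeq2 1.42.0, limma-voom with quality weights (limma 3.58.1), factors by RLE or upper quartile, no filter or a stricter one on low counts, robust dispersions, a replicate block, Ddx3y reads as a covariate, removal of haemoglobin, ribosomal protein and mitochondrial genes, a threshold of 0.1, and leaving out each library.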

Additional observations from a re-analysis of the deposited data

Results flagged for a closer look

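In groups of 5, a library was singled out where its gap to the nearest one exceeded 0.71 of the range; 40 such groups were looked at, and chance singles out about 1 in 20. This held for Hlf, where 3 reads gave 0.0785 CPM in non-stressed replicate 2 and 0.0994 CPM in stressed replicate 4 and all others had 0. It also held for the 5 fibroblast markers, which summed to 0.209 CPM in non-stressed replicate 5 and 0.458 CPM in stressed replicate 5, with at most 0.0444 CPM in any other library. Where the other libraries of a group are at or near 0, a few reads suffice to meet this rule. The rate of 1 in 20 thus does not apply to Hlf or the fibroblast markers, and nothing is drawn from them.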

How the results depend on the processing

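All 6 tested members kept the sign of their log2 fold change under RLE and upper-quartile factors, DESeq2, both other filters (Bhlhe41 did not pass the stricter one), the robust dispersion, the block, the gene removal and the covariate; with limma-voom 5 of 6 did, and Bhlhe41 stood at -0.3571. The count of genes past the threshold was 1; it was 19 with DESeq2, 4 with the replicate block, 10 with no filter on low counts and 2 with limma-voom, and 1 to 2 over the leave-one-out fits. The count of members past it was 0; it was 1 (Tef) with DESeq2 and 1 with no filter on low counts, and 0 in every leave-one-out fit. With a library left out, 4 to 6 members were higher and their median ran from 0.34 to 0.57. Bhlhe40 then ran from -0.1829 to 0.3426, and was also negative without non-stressed replicate 5 or stressed replicate 1 or 2; Bhlhe41 ran from -0.5121 to 0.453. The cause was not tested. With the replicate number as a block, Tef had a log2 fold change of 0.98 (edgeR, adjusted p = 0.0520), and Fkbp5 passed the threshold (1.14; edgeR, adjusted p = 0.0279), the 1 call that the block changed among the members and the gene and marker lists. Deviations of same-numbered libraries correlated at 0.128, 0.156, -0.027, 0.118 and 0.124. For replicates 1, 2 and 5, the same-numbered library was the best correlated one of the other group in both directions. For replicate 4 this held in a single direction, and for replicate 3 in neither. The Ddx3y split also fell on the same numbers in both groups. The titles do not say that numbers pair the samples, and whether they do is not settled here, so the block stayed an alternative. Low counts limit Bhlhe41 and Hlf.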
